A study of Mus musculus with 21 samples.

Results

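Zfp46, Eps8l1 and Pla2g4e are the 3 genes of the hippocampus that were lower after maternal separation (MS) than after standard rearing (SR) in the study's list of genes past a 1.3-fold difference, out of 55487 genes in the deposited count table and 18146 tested here. They were chosen by that contrast, on these mice: an adjusted p under 0.05 in DESeq2 together with a fall past 1.3-fold. The size and direction of the MS-SR difference of each are therefore given as a description, without a test.

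Hippocampal poly-A RNA of wild-type male C57BL/6 mice, 9 MS and 12 SR, was sequenced with a library for each mouse, to look for changes in gene expression that last into adulthood. MS mice were separated from the dam as whole nests for 4 hr a day from postnatal day 10 to day 17 and lived in cages with less nesting material, and SR mice were left with the dam. Hippocampi were taken at 10 weeks of age, from mice that had been housed by 3 after weaning. The labels name no nest, but each run of 3 consecutive animal numbers holds 1 rearing condition, so mice are named here by a letter for the run, or set (A, B and C for MS; D, E, F and G for SR), and a number. Sets A, B, D, E and F carry numbers below 56000 (the first range), and sets C and G carry higher ones (the second range).

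Zfp46 encodes a nuclear protein with a KRAB domain and C2H2 zinc fingers, the mouse counterpart of human ZNF436. KRAB zinc finger proteins bind DNA and recruit the corepressor Trim28, which brings in enzymes that silence chromatin. Eps8l1 belongs to the EPS8 family, adaptor proteins that join receptor tyrosine kinases to the actin cytoskeleton through Abi1, Sos1 and the small GTPase Rac. Pla2g4e, a member of the group IV (cytosolic) phospholipase A2 family, acts as a calcium-dependent N-acyltransferase. It makes N-acyl-phosphatidylethanolamines, from which the brain produces N-acylethanolamines such as the endocannabinoid anandamide.

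The genes lie on different chromosomes. Zfp46 (ENSMUSG00000051351) occupies 136284683 to 136293942 on the plus strand of chromosome 4 of GRCm38, with 5212 exonic bases. Eps8l1 (ENSMUSG00000006154) lies at 4460674 to 4480487 on the plus strand of chromosome 7, with 6036 exonic bases. Pla2g4e (ENSMUSG00000050211) spans 120166412 to 120245335 on the minus strand of chromosome 2, with 6960 exonic bases. All are annotated as protein-coding, with 5, 14 and 4 transcripts.

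The sequences upstream of the first RefSeq start of each gene (GRCm38.p6) are shown so that the motifs they hold can be compared. They cover chr4:136284426-136284675 (plus strand) for Zfp46, chr7:4460447-4460673 (plus strand) for Eps8l1 and chr2:120245336-120245585 (minus strand) for Pla2g4e, all outside the annotated exons of the gene itself. Of the Pla2g4e stretch, 170 of 250 bases lie in an exon of Gm13997, a transcript annotated on the same strand. Capitals mark matches to the motifs searched on both strands, namely TATAAA, the box bound by the TATA-binding protein and found here on the reverse strand, the box CCAAT, also on the reverse strand, and TGACG, the core of a cyclic AMP response element.
Zfp46: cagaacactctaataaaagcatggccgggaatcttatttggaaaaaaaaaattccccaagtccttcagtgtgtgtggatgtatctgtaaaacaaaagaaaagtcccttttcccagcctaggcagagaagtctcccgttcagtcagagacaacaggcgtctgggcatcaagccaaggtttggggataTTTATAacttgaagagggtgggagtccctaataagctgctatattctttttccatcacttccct
Eps8l1: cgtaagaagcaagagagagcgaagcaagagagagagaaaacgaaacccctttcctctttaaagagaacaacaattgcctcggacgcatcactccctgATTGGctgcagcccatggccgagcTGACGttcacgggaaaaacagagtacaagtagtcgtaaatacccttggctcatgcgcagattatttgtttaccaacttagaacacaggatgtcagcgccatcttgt
Pla2g4e: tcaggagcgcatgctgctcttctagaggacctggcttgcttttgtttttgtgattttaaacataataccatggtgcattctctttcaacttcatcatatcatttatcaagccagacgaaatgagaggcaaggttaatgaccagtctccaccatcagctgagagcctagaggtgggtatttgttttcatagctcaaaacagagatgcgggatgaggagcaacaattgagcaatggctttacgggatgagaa
No motif searched was common to the 3 stretches. Zfp46 had the TATA box, which 12.4% of 32851 RefSeq windows of 250 bases before a start hold. Eps8l1 had the CCAAT box (33.8% of windows) and the TGACG core (17.8%). In the Pla2g4e stretch there was no match to these motifs, and none of the 3 stretches held the GC box (GGGCGG), the full cyclic AMP response element, the AP-1 site (TGANTCA), the E-box CACGTG, the glucocorticoid receptor palindrome, the NRF1 core or the serum response element core. All windows held these in shares from 0.0609% (serum response element core) to 32.7% (GC box). The stretches held 3 CpG in Zfp46, 11 in Eps8l1 and 4 in Pla2g4e, where the median window of 250 bases held 6.0. The Eps8l1 stretch was ended at 227 bases, where the first exon begins, and the full window of 250 bases at that start had 14 CpG, 1 GC box and another TGACG match. The windows of its other 2 RefSeq starts each held a GC box too. RefSeq gives Zfp46 another start further downstream, whose window had 15 CpG, 2 CCAAT matches and 1 TGACG match.

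Among the libraries, MS mouse A2 stood apart. Its score on the first principal component of the 500 most variable genes was 27.1, where the other 20 libraries lay between -12.2 and 11.9. Its mean log2 level of 10 dentate granule cell markers, relative to the mean of the other mice, was -2.01 (-0.51 to 0.43 in the others), and that of 10 striatal neuron markers was 4.14 (-0.77 to 2.65). Except where it is named, A2 does not enter the values, which cover 8 MS and 12 SR mice. Total counts ran from 17276810 to 24052716 in these MS libraries and from 18368519 to 26450808 in SR. All of the 10 dentate, 8 CA1 and 10 CA3 and CA2 markers, which define the labelled tissue, passed the filter on low counts. Choroid plexus markers varied most between dissections, with a score of -3.23 to 2.12 in MS (median 1.75) and -3.59 to 2.18 in SR (median -0.16).

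Zfp46 was the most abundant of the 3 genes, and the only one whose MS and SR mice did not overlap. Levels are given in CPM, a gene's counts scaled to the library total after TMM normalization. In MS, Zfp46 had a lowest value of 33.0 CPM, a median of 38.7 and a highest of 41.7. In SR the lowest was 42.2, the median 47.7 and the highest 61.8. The narrowest gap lay between MS mouse B3 and SR mouse D1. The MS mean was 38.2 ± 3.22 CPM (SD, n = 8) and the SR mean 49.9 ± 6.66 (SD, n = 12), a difference of 23.4% of the SR level, with a log2 fold change of -0.38 (SE 0.0714). Such a complete separation downward was found for 1 of the 18146 genes, 0.00551%, which is Zfp46 itself, and since the contrast chose the gene nothing is read from this count. In bulk tissue, fewer cells that express a gene and less RNA per cell cannot be told apart.

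Eps8l1 overlapped between the conditions through few mice. Its MS levels ran from 10.3 to 15.4 CPM with a median of 12.2, and its SR levels from 13.1 to 22.3 with a median of 15.9. Of the 8 MS mice, 7 lay below every SR mouse. The exception was A1, at 15.4 CPM, and 5 SR mice (E1, F1, F2, G1 and G3) were at or below that level. The means were 12.4 ± 1.44 CPM (SD, n = 8) and 16.4 ± 2.69 (SD, n = 12), 24.5% lower in MS, with a log2 fold change of -0.40 (SE 0.0897).

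Pla2g4e had the largest fall of the 3 and the lowest level, with 57 to 124 counts in MS libraries and 84 to 204 in SR libraries. Its CPM ran from 3.12 to 5.63 in MS, with a median of 4.86, and from 4.63 to 8.23 in SR, with a median of 6.66. Here the conditions overlapped more. Of the MS mice, 2 (C2 and C3) lay below all SR mice, and 10 of the 12 SR mice lay above all MS mice, E3 and G2 being the exceptions. The means were 4.82 ± 0.860 CPM (SD, n = 8) and 6.68 ± 1.28 (SD, n = 12), 27.8% lower in MS, with a log2 fold change of -0.47 (SE 0.122).

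**Figure D1:**
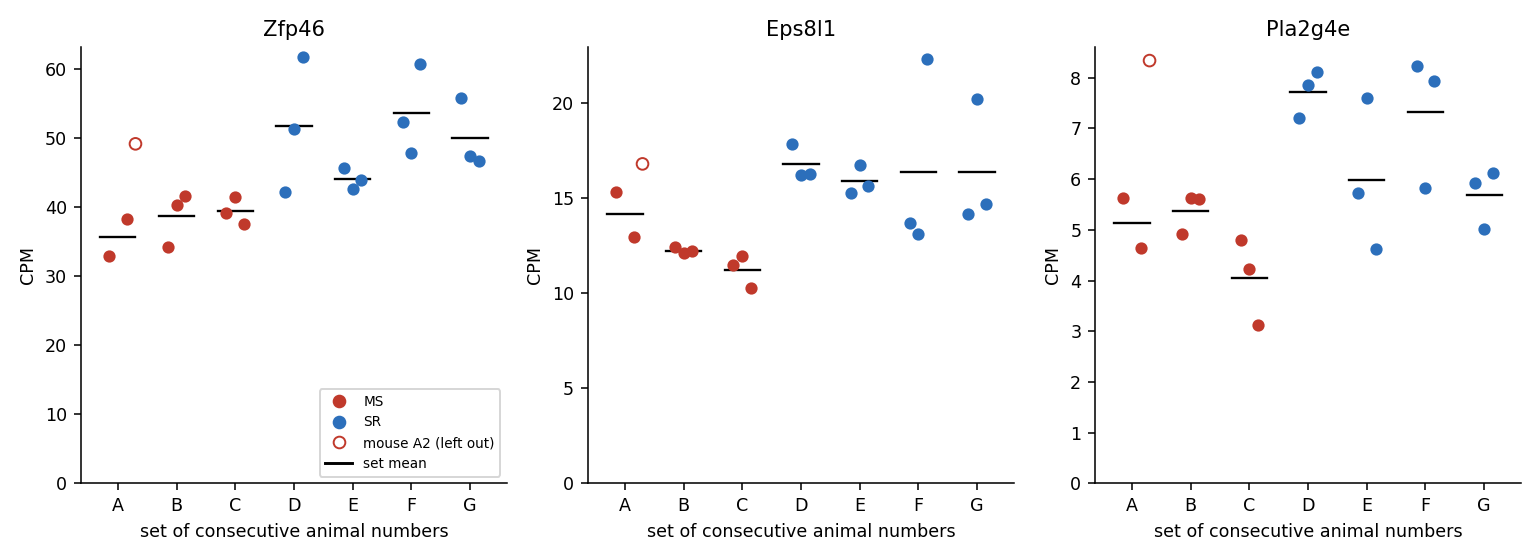
Level of each gene in CPM (vertical axis, from 0) in every mouse, by set of consecutive animal numbers (horizontal axis), with MS mice in red, SR mice in blue, set means as black lines and the left-out MS mouse A2 as an open circle. Zfp46 reached at most 41.7 CPM in the 8 MS mice and at least 42.2 in SR, while A2 lay at 49.2 CPM of Zfp46, 16.8 of Eps8l1 and 8.34 of Pla2g4e.

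For each of the 3 genes, all 8 MS mice lay below the median of the SR mice. This follows in part from the choice of the genes by the same contrast. The share of all genes with this pattern was not counted, so nothing is read from it. In SR, Zfp46 had 9.58 CPM per kb of exon, Eps8l1 2.71 and Pla2g4e 0.960. The spread between mice was wider than counting alone gives. The coefficient of variation among SR mice was 13.4% for Zfp46, against 2.98% from counting, 16.5% against 5.20% for Eps8l1, and 19.2% against 8.13% for Pla2g4e. Among MS mice it was 8.41%, 11.7% and 17.8%, against 3.56%, 6.27% and 10.0% from counting.

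Mouse A2, which the selection of these genes did not use, had high levels of all 3 genes for an MS mouse. Its Zfp46 was 49.2 CPM (normalized over 21 libraries), above the other 8 MS mice and above 7 of the 12 SR mice. Eps8l1 was at 16.8 CPM, again above all other MS mice and above 9 SR mice. Pla2g4e, at 8.34 CPM, exceeded every other mouse of both conditions. With A2 included, the log2 fold changes were -0.34 (SE 0.0755) for Zfp46, -0.35 (SE 0.0942) for Eps8l1 and -0.35 (SE 0.137) for Pla2g4e, and all 3 falls were then smaller than 1.3-fold. A2 also had the marker scores given above, and their part in its levels was not tested.

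By edgeR's quasi-likelihood test over all genes, 2 genes were called (0.011%), neither of them a member of the trio and both higher in MS. At the same threshold 0 genes were called lower in MS (0.0% of 18146) at an adjusted p under 0.05, with 893 lower at an unadjusted p under 0.05. This 0 depended on single libraries, since 57 genes were called lower without MS mouse C2, 13 without C3 and 129 without set C. DESeq2's Wald test called 43 lower (0.276% of 15569). The study also used DESeq2, but adjusted its p-values by independent hypothesis weighting, where DESeq2's default adjustment was used here. Its list and the calls given here are therefore not at the same adjustment. In DESeq2, 4 genes passed both thresholds of the rule (0.0257%), the 3 genes and Acr, which is not in the study's list and had a log2 fold change of -0.76. Just inside the fold threshold lay Zfp46 with a DESeq2 log2 fold change of -0.38, and just outside were Gm37928 (-0.36), AC154707.1 (-0.33) and Vstm5 (-0.30). Past the fold but with a DESeq2 adjusted p above 0.05 were Gm48932 (-0.41, adjusted p = 0.105), Gm43667 (-0.40, adjusted p = 0.110) and 1700020D05Rik (-0.39, adjusted p = 0.132). At any p, 256 genes (1.41%) were lower by over 1.3-fold in the edgeR fit, and by the size of the fall Pla2g4e ranked 106th, Eps8l1 195th and Zfp46 243rd. Of genes with 5000 to 7000 exonic bases, a range that holds all 3, the lowest 5% had a log2 fold change under -0.16.

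By set, each of the 3 MS set means lay below each of the 4 SR set means for all 3 genes. This pattern was found for 4.51% of the genes tested, and it follows in part from the choice of the genes. For Zfp46, the set means were 35.6, 38.8 and 39.4 CPM in A, B and C, and 51.8, 44.1, 53.7 and 50.04 CPM in D, E, F and G. Set E was the lowest and the most uniform of the SR sets, at 42.6 to 45.8 CPM. Sets D and F each held a mouse above 60 CPM, D3 at 61.8 and F3 at 60.8.

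The Eps8l1 means of the SR sets were close to one another, at 16.8, 15.9, 16.4 and 16.4 CPM in D, E, F and G, although F and G each held 1 high mouse (F3 at 22.3 CPM and G2 at 20.2). In MS the means were 14.2, 12.2 and 11.2 CPM in A, B and C. Set B spanned only 12.1 to 12.4 CPM.

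The SR means of Pla2g4e were 7.73 CPM in D and 7.33 in F, and lower in E and G, at 5.99 and 5.69. In MS they were 5.13 in A, 5.38 in B and 4.05 in C, where C3 had the lowest value of all mice, 3.12 CPM. The highest MS set mean and the lowest SR set mean, 5.38 and 5.69 CPM, differed by less than the range of the mice within any set.

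Whether the sets of one condition differed was tested over all genes with edgeR, a comparison that the MS-SR contrast did not use. It is not free of the selection, though, since the spread within a condition entered the test that chose the genes. The p-values of the 3 genes are to be read with that limit. Among the 4 SR sets, 3 of 19023 genes were called (0.0158%) and none of the 3 genes was among them, with adjusted p of 0.741 for Zfp46, 0.993 for Eps8l1 and 0.677 for Pla2g4e (unadjusted 0.189, 0.978 and 0.0663). Among the 3 MS sets, 18 of 18905 genes were called (0.0952%), again without Zfp46 (edgeR adjusted p = 0.884), Eps8l1 (0.594) and Pla2g4e (0.703). With 2 or 3 mice a set, differences of the size seen for Pla2g4e were not resolved from the spread between mice.

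The falls were seen in both ranges of animal numbers. In the first range (5 MS and 9 SR mice), the log2 fold change was -0.41 (SE 0.0991) for Zfp46, -0.33 (SE 0.105) for Eps8l1 and -0.41 (SE 0.130) for Pla2g4e. In the second range (3 mice of each condition) it was -0.34 (SE 0.0873), -0.54 (SE 0.150) and -0.48 (SE 0.193). The MS and SR mice of the second range did not overlap for any of the 3 genes (5.1% of all genes, downward), and those of the first range did not overlap for Zfp46 (0.557%). Both ranges are parts of the contrast that chose the genes, so nothing is read from these falls or from the shares.

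The difference of the MS effect between the ranges, second minus first, was 0.07 (SE 0.159) on the log2 scale for Zfp46, -0.22 (SE 0.191) for Eps8l1 and -0.07 (SE 0.234) for Pla2g4e. No difference passed the threshold (edgeR adjusted p = 0.932, 0.784 and 0.957), and 0 of 18146 genes did (0.0%), with 1573 (8.67%) at an unadjusted p under 0.05 and 18 called by DESeq2's likelihood ratio test. The SE leave room for effects in one range that are well above those in the other. With condition as a term, Pla2g4e was lower in the second range by a log2 fold change of -0.34 (SE 0.115, edgeR p = 0.00732, adjusted p = 0.191), a difference near that between MS and SR which missed the threshold over all genes, where 0.281% were called. Zfp46 and Eps8l1 had values of 0.03 (SE 0.0775) and -0.09 (SE 0.0954) between the ranges.

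**Figure D2:**
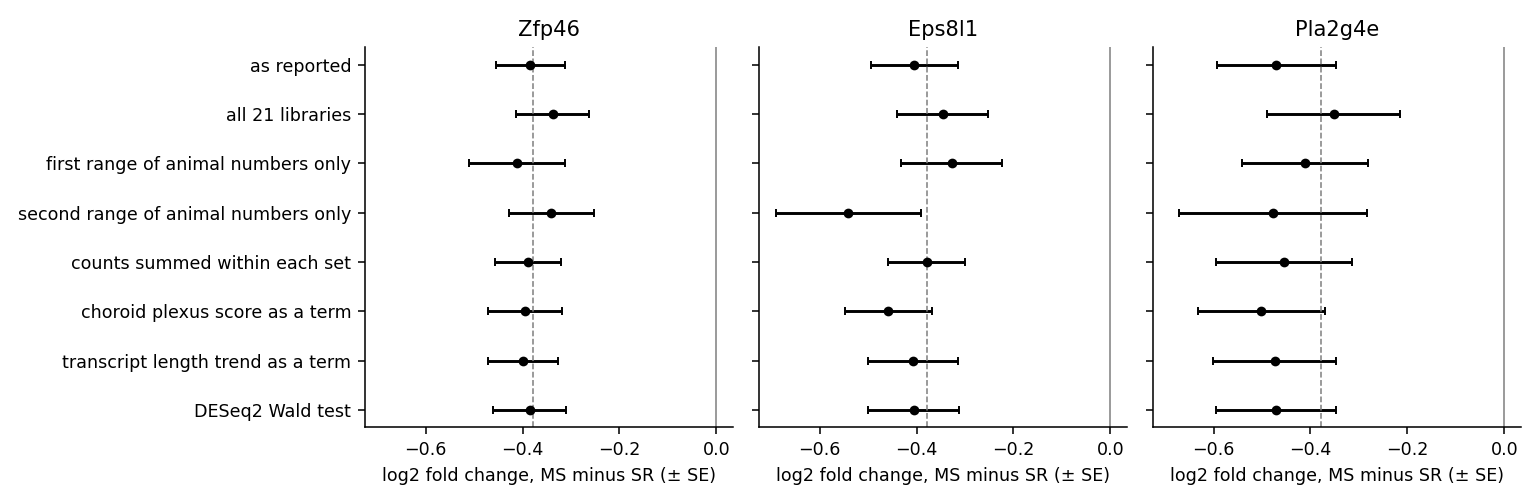
Log2 fold change of each gene, MS minus SR (horizontal axis, points with SE), in the fit as reported and in 7 alternatives (rows). The solid line marks 0 and the dashed line a 1.3-fold fall. All points lie below 0, from -0.54 (Eps8l1 in the second range) to -0.33 (Eps8l1 in the first range).

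The relation of the 3 genes to each other within a condition passed no test. Over all 20 mice, Pearson's r of log2 CPM was 0.54 between Zfp46 and Eps8l1, 0.64 between Zfp46 and Pla2g4e and 0.62 between Eps8l1 and Pla2g4e, but these values contain the contrast that chose the genes. After the mean of each condition was subtracted they were -0.01, 0.30 and 0.31. By this measure, Pla2g4e ranked 3001st among 15854 genes in likeness to Zfp46 and 1498th in likeness to Eps8l1, and Eps8l1 ranked 8189th in likeness to Zfp46.

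Of 6 relations tested, 3 in each condition, none had an adjusted p under 0.05. In SR (n = 12), Zfp46 and Pla2g4e had r = 0.45 (rho = 0.51, permutation p = 0.139 and 0.0933, adjusted p = 0.374 and 0.345), which was 0.16 without the 2 mice farthest from the median of Zfp46. Zfp46 and Eps8l1 had r = 0.15 (rho = -0.11, permutation p = 0.640 and 0.734, adjusted p = 0.812 and 0.793) and Eps8l1 and Pla2g4e r = 0.13 (rho = 0.11, permutation p = 0.677 and 0.732, adjusted p = 0.812 and 0.793). Without the 2 mice farthest from the median of the first gene these were -0.45 and 0.29. F3 is high for all 3 genes and D3 for Zfp46 and Pla2g4e, whereas G2 is high for Eps8l1 and among the lowest SR mice for Pla2g4e.

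In MS (n = 8), Eps8l1 and Pla2g4e had r = 0.70 (rho = 0.62, exact permutation p = 0.0859 and 0.115, adjusted p = 0.374 and 0.345). That value rested on A1, high for both, and C3, lowest for both, since r was -0.01 without them. Zfp46 and Eps8l1 had r = -0.53 (rho = -0.38, exact permutation p = 0.187 and 0.360, adjusted p = 0.374 and 0.720), and 0.42 without the 2 mice farthest from the Zfp46 median. For Zfp46 and Pla2g4e r was -0.06 (rho = -0.12, exact permutation p = 0.893 and 0.793, adjusted p = 0.893 and 0.793), and 0.64 without those 2 mice. With A2 included, r between Eps8l1 and Pla2g4e in MS was 0.85 (exact permutation, adjusted p = 0.0326). Over all 20 mice after subtraction of the set means, r was 0.09, 0.29 and 0.22 for Zfp46 and Eps8l1, Zfp46 and Pla2g4e, and Eps8l1 and Pla2g4e, values that were not tested.

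**Figure D3:**
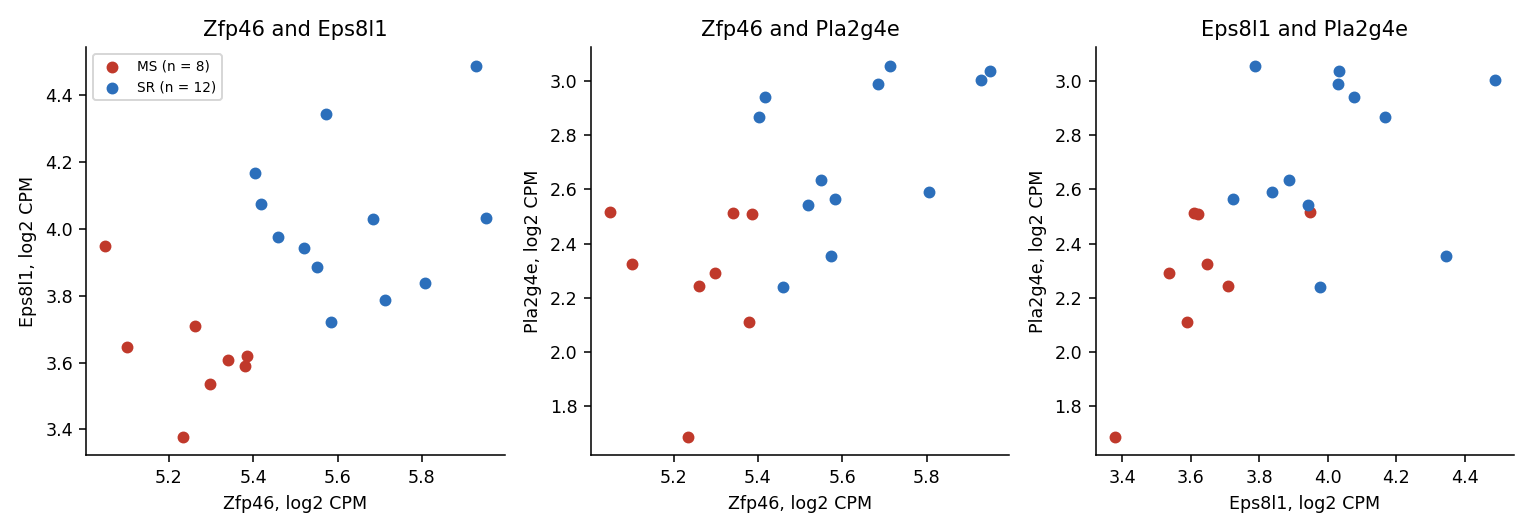
Log2 CPM of the 3 genes against each other in 8 MS mice (red) and 12 SR mice (blue), 1 point per mouse and 1 panel per pair. MS mice lie lower on average along each axis, which the choice of genes gives. The conditions are fully apart along Zfp46 alone and overlap along Eps8l1 and Pla2g4e. Within a condition r ran from -0.53 (Zfp46 and Eps8l1 in MS) to 0.70 (Eps8l1 and Pla2g4e in MS).

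The genes most like each member after subtraction of the condition means, over the 20 mice and among 15854 genes with a mean of at least 1 CPM, were different for the 3 genes. For Zfp46 they were Gm48482 (r = 0.87), 1700016A09Rik (0.87) and Npy5r (0.80), a receptor of neuropeptide Y. For Eps8l1 they were Fam129a (0.74), the transcription factor gene Maf (0.71) and Daglb (0.70), which encodes a lipase that makes the endocannabinoid 2-arachidonoylglycerol. For Pla2g4e they were Cc2d1b (0.80), AC149090.1 (0.79) and Gm8319 (0.78). The log2 fold changes of these 9 genes between MS and SR ran from -0.35 (AC149090.1) to 0.11 (Maf), and edgeR called none of them. Of the 100 genes most like Zfp46, 76.0% were lower in MS, where 49.4% of the genes compared were. These 100 vary together from mouse to mouse (r with Zfp46 of at least 0.65), so they do not count as separate observations. The share was 26% for Eps8l1 and 52% for Pla2g4e.

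The genes were also set beside 12 marker scores, the transcript length trend and the total count of each library, within each condition. Of these 84 relations, 0 had an adjusted p under 0.05. By Pearson's r, 9 had an unadjusted permutation p under 0.05 (7 for Zfp46 and 2 for Eps8l1), with a smallest adjusted p of 0.265. By Spearman's rho it was 6 (4 for Zfp46 and 2 for Pla2g4e), with a smallest adjusted p of 0.440, so which genes these were depended on the statistic. Zfp46 in MS had r = 0.86 with CA1 pyramidal cell markers (rho = 0.74, n = 8, exact permutation p = 0.00444 and 0.0458, adjusted p = 0.265 and 0.440), and 0.74 without the 2 farthest mice. Its r with neocortical markers in MS was -0.86 (rho = -0.52, exact permutation p = 0.00858 and 0.197, adjusted p = 0.265 and 0.826) and rested on 2 mice, being -0.16 without them. With endothelial markers, Zfp46 in SR had r = -0.61 (rho = -0.71, n = 12, permutation p = 0.0355 and 0.0114, adjusted p = 0.373 and 0.440). That r was -0.76 without the 2 farthest mice, whereas in MS it was 0.12 (rho = 0.10, n = 8). With CA3 and CA2 markers in MS, Eps8l1 had r = -0.84 (rho = -0.71, exact permutation p = 0.00947 and 0.0576, adjusted p = 0.265 and 0.440). Pla2g4e had r = -0.68 (rho = -0.81, exact permutation p = 0.0632 and 0.0218, adjusted p = 0.452 and 0.440). Without the 2 farthest mice these r were -0.41 and -0.38, and in SR they were 0.30 and -0.17. Zfp46 had r = 0.76 with dentate markers in MS and 0.55 in SR, and 0.49 and 0.22 without the 2 farthest mice. Of the hippocampal markers, 7 of 8 for CA1 (median log2 fold change -0.06) and 7 of 10 for dentate granule cells (-0.08) were lower in MS. For CA3 and CA2 it was 5 of 10 (0.0021), and among all genes 49.7%. EdgeR called 0 of these markers, and their part in the falls was not tested. The means of markers of other tissue also differed between MS and SR. Striatal neuron markers were higher in MS in 10 of 10 (median log2 fold change 0.47, 6 past 1.3-fold, 0 called). The medians of their score were close, at -0.26 in MS and -0.31 in SR. MS mouse B1 stood at 2.65 and the next MS mouse, A1, at 0.25, while SR mouse E2 reached 1.94. The higher mean in MS thus rested largely on B1. The r of the striatal markers with Zfp46 was -0.55 in SR (rho = -0.73, n = 12, permutation p = 0.0466 and 0.01, adjusted p = 0.435 and 0.44), and -0.64 without the 2 farthest mice. In MS it was -0.64 (rho = -0.50, n = 8, exact permutation p = 0.0731 and 0.216, adjusted p = 0.463 and 0.861), and -0.06 without the 2 farthest mice. Their part in the falls was not tested. Choroid plexus markers, of which 10 of 10 were higher in MS (median log2 fold change 0.90, 0 called), had r with the 3 genes of -0.39 to 0.39 across both conditions, and with this score as a term the log2 fold changes were -0.40, -0.46 and -0.50 for Zfp46, Eps8l1 and Pla2g4e.

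Among other genes of the same families and pathways, none was called in either direction over the 20 mice. Calls appeared in the first range of animal numbers alone and without MS mouse C2, where edgeR called Cyfip2 lower (log2 fold change -0.15 and -0.14, adjusted p = 0.0469 and 0.0461) and Pla2g16, a phospholipase and N-acyltransferase gene, higher (0.38 and 0.32, adjusted p = 0.0196 and 0.0434). In these fits 230 of 18395 and 109 of 18266 genes were called. In the EPS8 family, Eps8 had 37.0 CPM in SR and a log2 fold change of 0.06 (SE 0.0696, edgeR adjusted p = 0.801), and Eps8l2, which binds actin in the stereocilia of hair cells, had 4.23 CPM and a log2 fold change of 0.51 (SE 0.268, edgeR adjusted p = 0.482). Eps8l3, at 1 to 12 counts a library, was below the filter. Per kb of exon, the SR level of Eps8 was 3.00 ± 0.256 CPM (SD, n = 12), that of Eps8l1 2.71 ± 0.446 and that of Eps8l2 0.787 ± 0.366. Eps8l2 overlaps B230206H07Rik on the opposite strand over 3880 bases.

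Of 23 partners of EPS8 and regulators of actin around Rac, 13 were lower and 10 higher in MS, with a median log2 fold change of -0.03 (all genes 0.00084), and edgeR called none. The values ran from -0.12 for Wasf1, a subunit of the WAVE complex that starts actin branching, to 0.27 for Ezr, which links membranes to actin (edgeR adjusted p = 0.288). Abi1 and Sos1, through which EPS8 proteins reach Rac, had -0.06 and -0.07, and Rac1 had 0.03. Cyfip2, another WAVE subunit, had -0.11 (SE 0.0385, edgeR adjusted p = 0.260).

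In the group IV phospholipase A2 family, Pla2g4e had the highest level per length in SR, at 0.960 ± 0.184 CPM per kb (SD, n = 12), above Pla2g4a at 0.409 ± 0.0930 and Pla2g4b at 0.381 ± 0.0766. The log2 fold change of Pla2g4a, which releases arachidonic acid for prostaglandin synthesis, was 0.22 (SE 0.151, edgeR adjusted p = 0.604), and that of Pla2g4b 0.21 (SE 0.152, edgeR adjusted p = 0.623). Pla2g4c, Pla2g4d and Pla2g4f, with at most 22, 9 and 7 counts a library, were below the filter. Pla2g4b shares 9614 bases with Gm28042 on the same strand, which had a median of 0 counts, and overlaps Sptbn5 on the other strand.

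Of 21 further genes that make, break down or sense N-acylethanolamines and endocannabinoids, 18 were tested, 9 lower and 9 higher in MS, with a median log2 fold change of 0.0037, and edgeR called none. Napepld, the phospholipase that acts on the product of Pla2g4e, had 0.04 (SE 0.0938), and Faah, which degrades anandamide, had -0.07 (SE 0.0755). The range ran from -0.12 for Dagla, the main synthase of 2-arachidonoylglycerol in neurons, to 0.26 for the receptor gene Gpr55 (edgeR adjusted p = 0.545 and 0.580). The cannabinoid receptor gene Cnr1 had -0.08 (SE 0.0761, edgeR adjusted p = 0.729).

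Of 21 corepressor and silencing genes with which KRAB zinc finger proteins work, 11 were lower and 10 higher, none called by edgeR, with values from -0.06 for the DNA methyltransferase gene Dnmt1 to 0.10 for Cbx3, which encodes a heterochromatin protein. Trim28, the corepressor bound by KRAB domains, had 0.05 (SE 0.0365, edgeR adjusted p = 0.658). Zinc finger genes were then taken by symbol alone, as all symbols of Zfp and a number, without regard to a KRAB domain or finger type. Of such genes, 342 were tested besides Zfp46. Of these, 226 (66.1%) were lower in MS, beside 49.7% of all genes, with a median log2 fold change of -0.03. At an unadjusted p under 0.05, 36 were lower (10.5%, beside 4.92% of all genes) and 6 higher, and edgeR called none over all genes. Zfp934 had the lowest log2 fold change of the 342, -0.33 (SE 0.107, edgeR adjusted p = 0.232). The value of Zfp46, -0.38, lay below those of all 342 others. Zfp46 was chosen for a fall past 1.3-fold, which 0 of the 342 passed, so nothing is read from its place. Zfp185 had the highest, 0.45. In the first range of animal numbers 240 of 342 Zfp genes were lower (70.2%, beside 50.4% of all genes), and in the second 166 of 341 (48.7%, the same share as among all genes), a difference between ranges that was not tested. In the first range alone edgeR called 5 of 342, all lower (Zfp932, Zfp9, Zfp27, Zfp788 and Zfp40), beside 230 of all 18395 genes. Without MS mouse C3 it called 3 of 342 (Zfp932, Zfp759 and Zfp40), again lower, beside 109 of all 18280 genes. Without C2 it called 1 of 342 (Zfp932), lower too, beside 109 of all 18266. Nothing is read about the Zfp genes from these counts.

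**Figure D4:**
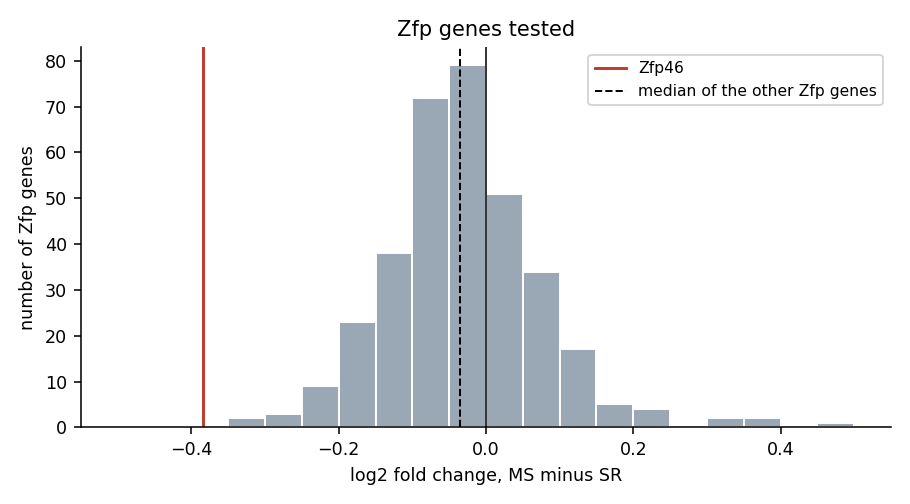
Number of Zfp genes (vertical axis) by log2 fold change, MS minus SR (horizontal axis, bins of 0.05), for the 342 genes tested besides Zfp46. The dashed line marks their median of -0.03 and the red line Zfp46 at -0.38. The red line lies to the left of all bars, a place that the choice of Zfp46 by this contrast gives.

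Among the neighbours of the 3 genes on their chromosomes, none passed the test. Of the 18 tested genes nearest to them, 3 on each side, 11 were lower and 7 higher in MS, with a median log2 fold change of -0.02, and none had an unadjusted p under 0.05 (smallest edgeR adjusted p 0.620). Around Zfp46, Tcea3 on one side had 0.45 (SE 0.390) at 0.737 CPM in SR, and Hnrnpr on the other had -0.03 (SE 0.0314). Around Eps8l1, Rdh13 had -0.01 (SE 0.0503) and Ppp1r12c, which ends 1033 bases beyond the gene on the opposite strand, 0.03 (SE 0.0432). Around Pla2g4e, Ehd4 had 0.11 (SE 0.0786) and Vps39 -0.03 (SE 0.0339). Pla2g4b lies in the same group IV cluster and is among these neighbours.

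Annotated genes overlap 2 of the 3. Gm15494 runs antisense to Eps8l1 over 10612 bases, with 2 to 19 counts a library and a log2 fold change of -0.18 (SE 0.315, edgeR adjusted p = 0.873). Gm13997 shares 415 bases with Pla2g4e on the same strand and had at most 2 counts. The library kit keeps the strand, but whether the counting used it is not given in the sources used here, so reads of Eps8l1 and Gm15494 may not be separate.

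**Figure D5:**
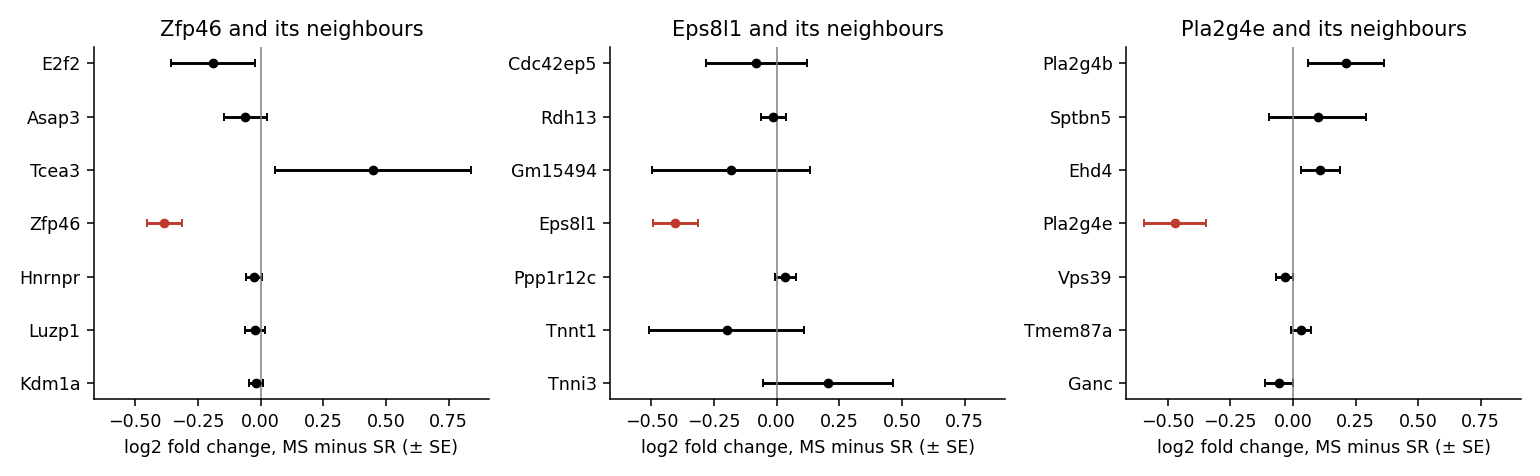
Log2 fold change, MS minus SR (horizontal axis, points with SE), of Zfp46, Eps8l1 and Pla2g4e (red) and of the 3 nearest tested genes on each side (black), in chromosome order from top to bottom. The red points lie at -0.38, -0.40 and -0.47, and the black ones between -0.20 (Tnnt1) and 0.45 (Tcea3).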

How the data were processed

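The authors sequenced poly-A RNA of 21 hippocampi, aligned the reads to GRCm38 with STAR 2.7.3a, counted them per Ensembl gene with featureCounts and deposited raw counts, neither normalized nor filtered. The study removed 1 outlier without naming it. Here the library farthest from the median on the first component of a PCA of variance-stabilised counts was left out. Symbols and positions are those of GENCODE M21, and promoter windows those of RefSeq.

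Counts were filtered with filterByExpr (minimum count 10), normalized by TMM and tested with edgeR 4.0.16 (glmQLFit with robust fitting, glmQLFTest) in R 4.3.3, with Benjamini-Hochberg adjustment and a threshold of 0.05. DESeq2 1.42.0 and limma 3.58.1 served as alternatives. SE are the log2 fold change over the square root of F. Except in the fits by set, the SE and the permutation tests treat mice as independent, although whole nests were assigned to a condition. Log2 CPM used a prior count of 2, and correlations used permutation tests (100000 resamples for 12 mice, exact for 8; two-sided). Counting variation is that of Poisson counts, and intervals between mice cover biological and technical spread alike. The scripts were tested on simulated counts.

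The genes and lists were chosen with earlier results of these data known. Named genes are the 3 genes, called, highest and lowest list members, the 3 nearest tested genes on each side, overlapping genes, the 3 most alike, and those nearest the thresholds. Genes named for their known role, or as called in an alternative, were chosen after their values were seen. Alternatives covered the left-out library, filter, normalization, test, sets, ranges, and each mouse and set left out. The choroid score, the length trend (the correlation of log2 CPM with the logarithm of exon length) and the refits of the lists were added after seeing the data.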

Additional observations from a re-analysis of the deposited data

How the results depend on the processing

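The log2 fold changes of the 3 genes stayed below 0 in all 12 alternatives and moved by less than 1 SD between mice. They ran from -0.41 to -0.34 for Zfp46, from -0.54 to -0.33 for Eps8l1 and from -0.50 to -0.35 for Pla2g4e. With each mouse left out in turn the ranges were -0.41 to -0.35, -0.46 to -0.36 and -0.51 to -0.40, and with each set left out -0.44 to -0.35, -0.48 to -0.33 and -0.57 to -0.34. The direction was fixed by the choice of the genes.

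Counts of genes called depended on the processing, and the cause was not tested. For MS against SR, edgeR called 2 genes, 1 over all 21 libraries, 1 with no filter, 0 with counts summed within each set, 0 in limma-voom with the set as a block and 0 with the choroid score as a term, while DESeq2 called 120. Leaving out each mouse gave 0 to 109 (109 without C2 and 109 without C3), and leaving out each set 0 to 340 (340 without C). Among the SR sets, 3 genes became 91 with DESeq2 and 91 with no filter. Among the MS sets, 18 became 239, 834 with no filter and 0 with A2 included. For the difference between the ranges, 0 became 18 and 1.

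Correlations between the genes changed sign easily. Without the 2 farthest mice, r was -0.45 for Zfp46 and Eps8l1 in SR, and in MS 0.42 for Zfp46 and Eps8l1, 0.64 for Zfp46 and Pla2g4e and -0.0054 for Eps8l1 and Pla2g4e. With A2 the MS values were 0.25, 0.49 and 0.85, the last past the threshold (exact permutation, adjusted p = 0.0326). As deviations from set means, the first 2 pairs had 0.0941 and 0.290. No paired analysis was made, since each set holds 1 rearing condition and the labels pair no MS mouse with an SR mouse. The number of Zfp genes lower in MS ran from 212 to 243 with each mouse left out, and the median log2 fold change of the list was 0.01 in the second range of animal numbers. With 57 to 204 counts a library, counting error limits Pla2g4e more than the other genes.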
